A study of Mus musculus with 8 samples.

Results

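The histone demethylases examined here are 10 genes of the mouse Jumonji C (JmjC) family, Kdm2a, Kdm2b, Kdm3a, Kdm3b, Kdm4a, Kdm4b, Kdm4c, Kdm5b, Kdm6b and Kdm7a, picked by name, with earlier results of these data known, from the 53700 genes of the count table. The rule itself used no measured value. Each name matched a single gene, and all 10 were among the 13933 genes with enough reads to be tested. Their mRNA was measured by RNA-Seq in Lewis lung carcinoma (LLC) cells, a mouse lung cancer line, that were either wild type (WT) or deficient in factor inhibiting HIF (FIH-KO), kept for 16 hours under 21% O2 (normoxia) or 1% O2 (hypoxia). There were 2 libraries in each of the 4 groups and 8 in all. The cells received no other treatment, and the FIH-KO cells came from CRISPR/Cas9 targeting of Hif1an, which encodes FIH, and were then cloned by dilution to single cells, so features of the derived line and loss of FIH cannot be told apart. Neither the labels nor the methods say that the 2 libraries of a group came from separate cultures, so p-values measure the spread between these libraries, which may be technical.

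Histone lysines carry methyl groups that are written by methyltransferases and read by chromatin proteins, and JmjC enzymes take these groups off again. The reaction uses molecular oxygen, 2-oxoglutarate and iron, as do the prolyl hydroxylases and FIH that mark hypoxia-inducible factor (HIF) for degradation or silence it. Several JmjC demethylase genes, KDM3A among them, are known HIF targets, so that low oxygen limits the enzyme reaction while it can raise the mRNA. RNA-Seq reads the mRNA level and neither the protein nor the histone marks. The comparisons below ask how the level of each demethylase changed with oxygen, and whether it differed in cells without FIH.

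Library totals ran from 14519731 to 18177016 counts. Hif1an, the targeted gene, was at 84.5 and 82.2 CPM (read counts normalized to library size) in WT normoxia, 90.1 and 83.9 in WT hypoxia, 34.7 and 37.6 in FIH-KO normoxia and 45.5 and 51.0 in FIH-KO hypoxia, so every FIH-KO library was below every WT library. Of 10 established hypoxia-induced genes checked alongside, 10 rose in WT cells and 9 in FIH-KO cells, the exception being Car9, a carbonic anhydrase. Car9 had 2 reads in each WT normoxia library and 49 and 27 in the WT hypoxia libraries. In FIH-KO cells it had 5 and 4 reads in the normoxia libraries and 5 and 2 in the hypoxia libraries. In hypoxia it was lower in FIH-KO than in WT cells (log2 fold change -3.33, adjusted p = 0.00083, edgeR), at these few reads. Against WT cells, FIH-KO cells had 3 of the 10 check genes called higher and 1, Car9, lower in hypoxia. In normoxia 2 were called higher and 0 lower. Over all tested genes 14.1% were called higher and 13.9% lower in hypoxia, and 15.2% and 13% in normoxia. The mesenchymal marker Vim stood between 3185 and 5437 CPM and the keratin genes Krt8 and Krt18 between 104 and 332 CPM. Krt8 was higher in FIH-KO than in WT cells, 2.03-fold in normoxia (adjusted p = 0.00066, edgeR) and 2.0-fold in hypoxia (adjusted p = 0.00083), and so was Vim, 1.43-fold (adjusted p = 0.017) and 1.49-fold (adjusted p = 0.01), whereas Krt18 was called in neither. Krt8 and Vim thus moved with genotype, and their part in the genotype differences of the demethylases was not tested. The leukocyte marker Ptprc and the endothelial marker Pecam1 reached at most 0.204 and 0.545 CPM. Because RNA was taken from whole cultures, a change in every cell and a change in some of them, or fewer cells of a type and less RNA per cell, cannot be told apart.

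HIF binds DNA at hypoxia response elements whose core is ACGTG or GCGTG, and the 300 bases before the annotated start of each demethylase gene were searched for these letters on both strands. Of the 10 windows, 8 held at least 1 match and 2, those of Kdm3a and Kdm4a, held 0. All 300 bases lay within annotated exons for Kdm2b, Kdm3a and Kdm4c, so these windows are not purely sequence upstream of transcripts. Exons also covered 170 bases of the window of Kdm2a, 27 of that of Kdm7a and 22 of that of Kdm5b. Over the 11622 tested protein-coding genes, 58.5% of windows of the same length held at least 1 match. The number of matches was 6 for Kdm4c, 5 for Kdm2a, 4 each for Kdm4b and Kdm7a, 2 for Kdm3b and 1 each for Kdm2b, Kdm5b and Kdm6b. The palindrome CACGTG, which other factors also bind, counts on both strands and was present before Kdm2a, Kdm3b, Kdm4b and Kdm4c. Windows of 3 genes that overlap no annotated exon are shown to compare 4 matches, 1 match and none. They are read 5′ to 3′ along the gene from the mouse genome GRCm39, ending at the base before the start, with matches in capitals (CACGT and CACGC are ACGTG and GCGTG on the other strand).
Kdm4b, chr17:56632613-56632912, plus strand: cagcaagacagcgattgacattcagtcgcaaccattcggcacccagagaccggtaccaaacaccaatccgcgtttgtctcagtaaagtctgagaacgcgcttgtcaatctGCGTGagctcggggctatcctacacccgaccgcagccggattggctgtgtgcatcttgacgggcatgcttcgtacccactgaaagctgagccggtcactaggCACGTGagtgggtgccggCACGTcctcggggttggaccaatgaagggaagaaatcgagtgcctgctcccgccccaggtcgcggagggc
Kdm6b, chr11:69304502-69304801, minus strand: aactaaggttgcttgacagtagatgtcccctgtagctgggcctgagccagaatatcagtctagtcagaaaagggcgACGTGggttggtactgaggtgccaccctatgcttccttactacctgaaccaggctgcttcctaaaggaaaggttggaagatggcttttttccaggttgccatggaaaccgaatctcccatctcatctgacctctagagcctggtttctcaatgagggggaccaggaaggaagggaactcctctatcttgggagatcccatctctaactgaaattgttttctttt
Kdm4a, chr4:118037252-118037551, minus strand: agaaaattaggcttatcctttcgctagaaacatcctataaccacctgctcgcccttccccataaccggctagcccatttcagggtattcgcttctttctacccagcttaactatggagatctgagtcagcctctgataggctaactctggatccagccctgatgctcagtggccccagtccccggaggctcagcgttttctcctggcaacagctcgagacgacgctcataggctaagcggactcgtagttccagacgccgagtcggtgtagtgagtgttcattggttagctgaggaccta
These letters describe the windows and show no binding. A window without a match says nothing of sites elsewhere in the gene.

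In WT cells, hypoxia raised 9 of the 10 demethylases and lowered none of them. Across all tested genes 32.4% were called in this comparison (adjusted p under 0.05), 16.9% higher and 15.5% lower. The median log2 fold change of the 10 was 0.93, against -0.00 over all tested genes. In FIH-KO cells, 6 of the 10 were called higher and 0 lower, against 16.8% of all tested genes, 8.84% higher and 8% lower. Their median log2 fold change there was 0.67, against -0.03 over all tested genes. Kdm2b was the only gene of the 10 with lower values in hypoxia, in both genotypes, and these did not pass the test. In FIH-KO cells Kdm3b, Kdm4a and Kdm4c were not called either.

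**Figure D1:**
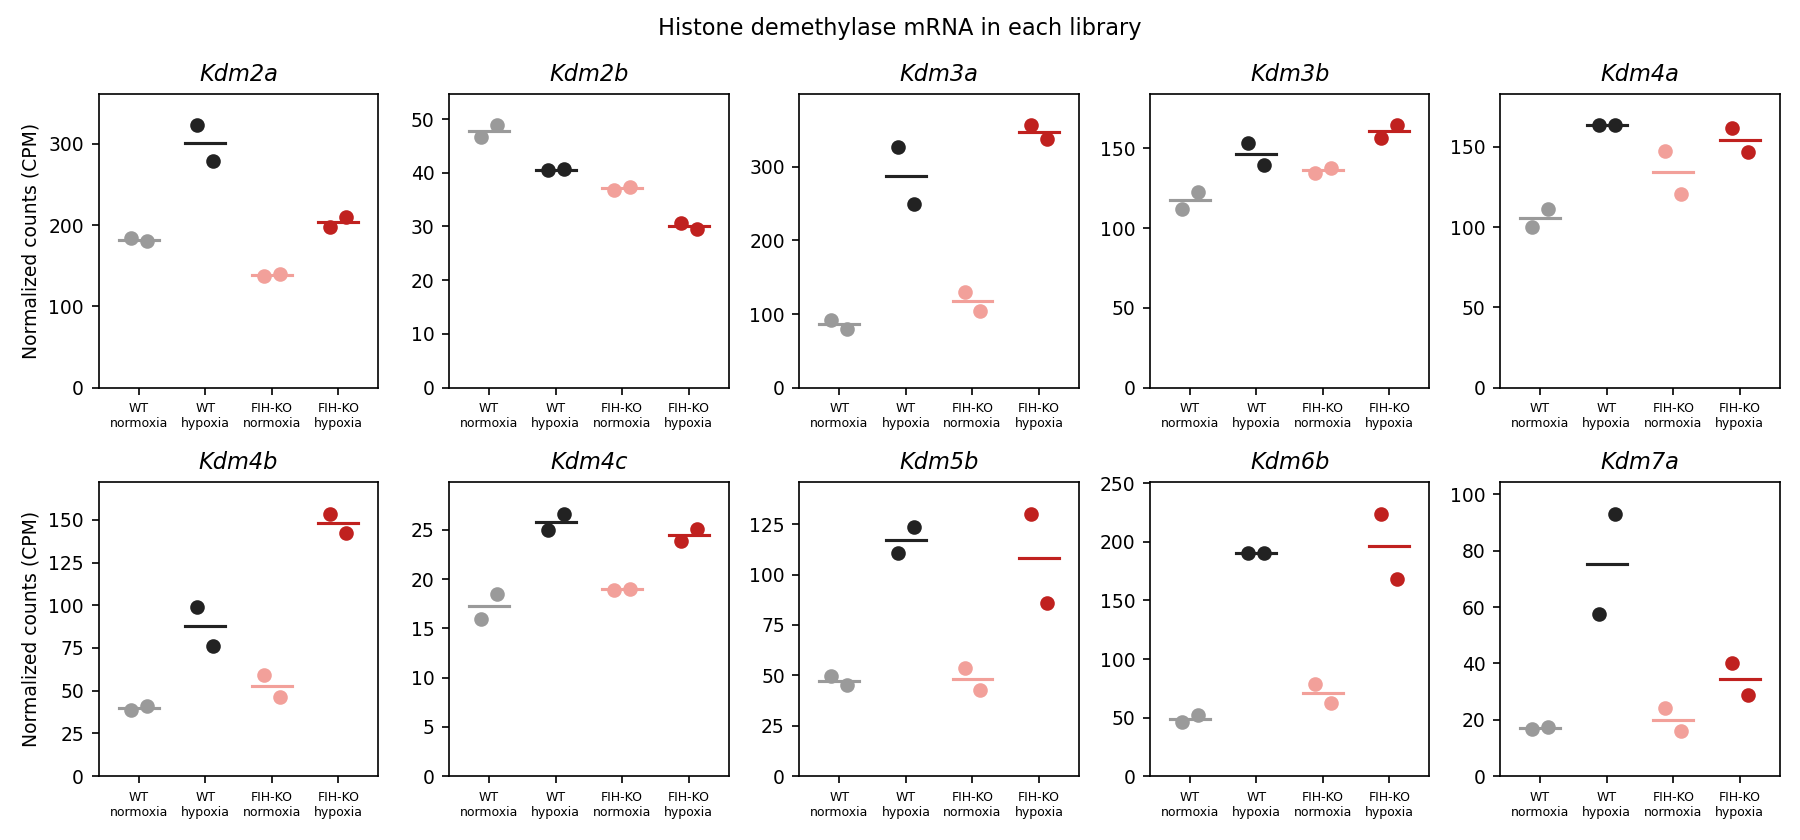
Normalized counts (CPM, vertical axis from 0, scaled for each gene) of the 10 demethylases in the 8 libraries. Points are libraries and lines are group means. For every gene except Kdm2b and Kdm4a, both hypoxia libraries lay above both normoxia libraries in each genotype. Kdm7a was highest in the 2 WT hypoxia libraries.

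Of the enzymes that act on histone H3 lysine 9 (H3K9), Kdm3a (ENSMUSG00000053470.14, chr6:71565956-71610472, minus strand, GRCm39 here and below), which removes mono- and dimethyl groups, rose in both genotypes. It was at 92.2 and 80.0 CPM in WT normoxia and at 327 and 250 CPM in WT hypoxia. In FIH-KO cells it was at 130 and 104 CPM in normoxia and at 357 and 338 CPM in hypoxia. All 4 hypoxia libraries were thus above all 4 normoxia libraries. The log2 fold change with hypoxia was 1.75 in WT cells (SE 0.15, adjusted p = 1.6e-05, edgeR) and 1.57 in FIH-KO cells (SE 0.15, adjusted p = 5.1e-05). The smallest of these values with any library left out was 1.42, in FIH-KO cells.

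Its close relative Kdm3b (ENSMUSG00000038773.12, chr18:34910036-34972064, plus strand), which acts on the same residue, moved far less. It was at 112 and 123 CPM in WT normoxia and at 154 and 140 CPM in WT hypoxia, and at 135 and 138 CPM in FIH-KO normoxia and at 157 and 165 CPM in FIH-KO hypoxia. The WT groups did not overlap and the log2 fold change was 0.32 (SE 0.11, adjusted p = 0.036), a call lost in 5 of the alternative fits, with 0.25 without WT hypoxia replicate 1. In FIH-KO cells the value was 0.24 (SE 0.10, adjusted p = 0.15).

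The KDM4 enzymes remove di- and trimethyl groups from H3K9 and H3K36. Kdm4b (ENSMUSG00000024201.13, chr17:56632913-56714338, plus strand) was at 38.5 and 41.0 CPM in WT normoxia, 99.0 and 76.4 CPM in WT hypoxia, 59.0 and 46.5 CPM in FIH-KO normoxia and 154 and 142 CPM in FIH-KO hypoxia. No 2 of these groups overlapped, and the FIH-KO hypoxia libraries were the highest. Hypoxia raised it 2.21-fold in WT cells (log2 1.14, SE 0.15, adjusted p = 0.00021) and 2.81-fold in FIH-KO cells (log2 1.49, SE 0.15, adjusted p = 6.9e-05).

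Kdm4a (ENSMUSG00000033326.16, chr4:117994154-118037251, minus strand) was at 99.9 and 111 CPM in WT normoxia and at 164 CPM in both WT hypoxia libraries, a log2 fold change of 0.63 (SE 0.12, adjusted p = 0.0022). In FIH-KO cells it was at 148 and 121 CPM in normoxia and at 162 and 147 CPM in hypoxia. There the groups overlapped, with a log2 fold change of 0.20 (SE 0.12, adjusted p = 0.29) and a 95% confidence interval of -0.06 to 0.46. Kdm4c (ENSMUSG00000028397.14, chr4:74160734-74324757, plus strand) was the least expressed of the 3, at 16 and 18.5 CPM in WT normoxia, 25.0 and 26.7 in WT hypoxia, 18.9 and 19.0 in FIH-KO normoxia and 23.9 and 25.1 in FIH-KO hypoxia. It rose in WT cells, by 0.58 on the log2 scale (SE 0.14, adjusted p = 0.0093), a call lost without WT normoxia replicate 1 (adjusted p = 0.10) and without WT hypoxia replicate 2. In FIH-KO cells the value was 0.37 (SE 0.14, adjusted p = 0.10), although both hypoxia libraries lay above both normoxia libraries.

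Kdm6b (ENSMUSG00000018476.8, chr11:69289334-69304501, minus strand), also called JMJD3, removes methyl groups from H3K27, the mark of Polycomb repression. It was at 45.8 and 52.5 CPM in WT normoxia and at 191 and 190 CPM in WT hypoxia. In FIH-KO cells it was at 78.8 and 62.8 CPM in normoxia and at 224 and 168 CPM in hypoxia. The hypoxia libraries were far above the normoxia libraries in each genotype, by 3.88-fold in WT cells (log2 1.96, SE 0.16, adjusted p = 8.9e-06) and 2.77-fold in FIH-KO cells (log2 1.47, SE 0.15, adjusted p = 9e-05).

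Kdm7a (ENSMUSG00000042599.9, chr6:39113554-39183728, minus strand) acts on lower methylation states of H3K9 and H3K27 and had the largest hypoxic rise of the 10 in WT cells when all libraries were used. Its level was 16.6 and 17.3 CPM in WT normoxia and 57.4 and 93.2 CPM in WT hypoxia. In FIH-KO cells it was 24.1 and 16.1 CPM in normoxia and 40.1 and 28.6 CPM in hypoxia. The 2 WT hypoxia libraries stood above the other 6, and they differed from each other by more than the libraries of any other group. The rise was 4.43-fold in WT cells (log2 2.15, SE 0.25, adjusted p = 1e-04). Without WT hypoxia replicate 2 it was 1.76 on the log2 scale, below Kdm6b (1.96) and Kdm3a (1.93) in the same fit. In FIH-KO cells it was 1.71-fold (log2 0.78, SE 0.25, adjusted p = 0.049), a call lost in 6 alternative fits, with log2 values of 0.51 to 1.1 over the libraries left out in turn.

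Kdm5b (ENSMUSG00000042207.18, chr1:134487875-134563030, plus strand), also called JARID1B, removes methyl groups from H3K4, a mark of active promoters. It was at 49.5 and 45.3 CPM in WT normoxia, 111 and 124 CPM in WT hypoxia, 53.5 and 42.8 CPM in FIH-KO normoxia and 130 and 85.8 CPM in FIH-KO hypoxia. Both genotypes showed hypoxia libraries clear of normoxia libraries, and the 2 FIH-KO hypoxia libraries enclosed the WT ones. The log2 fold change was 1.31 in WT cells (SE 0.18, adjusted p = 0.00029) and 1.17 in FIH-KO cells (SE 0.18, adjusted p = 0.0012).

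Kdm2a and Kdm2b remove methyl groups from H3K36 and bind unmethylated CpG islands through a CXXC zinc finger, and Kdm2b brings a variant Polycomb complex, PRC1.1, to those islands. Kdm2a (ENSMUSG00000054611.18, chr19:4364447-4448313, minus strand) was at 184 and 180 CPM in WT normoxia, 323 and 279 CPM in WT hypoxia, 137 and 140 CPM in FIH-KO normoxia and 198 and 210 CPM in FIH-KO hypoxia. It rose with hypoxia in WT cells (log2 fold change 0.73, SE 0.11, adjusted p = 0.00049) and in FIH-KO cells (0.56, SE 0.11, adjusted p = 0.0049). Kdm2b (ENSMUSG00000029475.18, chr5:123008720-123127886, minus strand) was at 46.7 and 48.9 CPM in WT normoxia, 40.4 and 40.7 CPM in WT hypoxia, 36.9 and 37.3 CPM in FIH-KO normoxia and 30.6 and 29.5 CPM in FIH-KO hypoxia. The 4 groups of Kdm2b did not overlap and within each genotype the hypoxia libraries were the lower ones. The hypoxia values, -0.24 in WT cells (SE 0.12, adjusted p = 0.14) and -0.30 in FIH-KO cells (SE 0.12, adjusted p = 0.11), did not pass the test. Exons of Kdm2b share 643 bases with Rnf34 on the opposite strand, which held 3141 reads over the 8 libraries, and since the strand setting of the counting is not given in the sources used here, reads from these bases cannot be assigned with certainty.

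**Figure D2:**
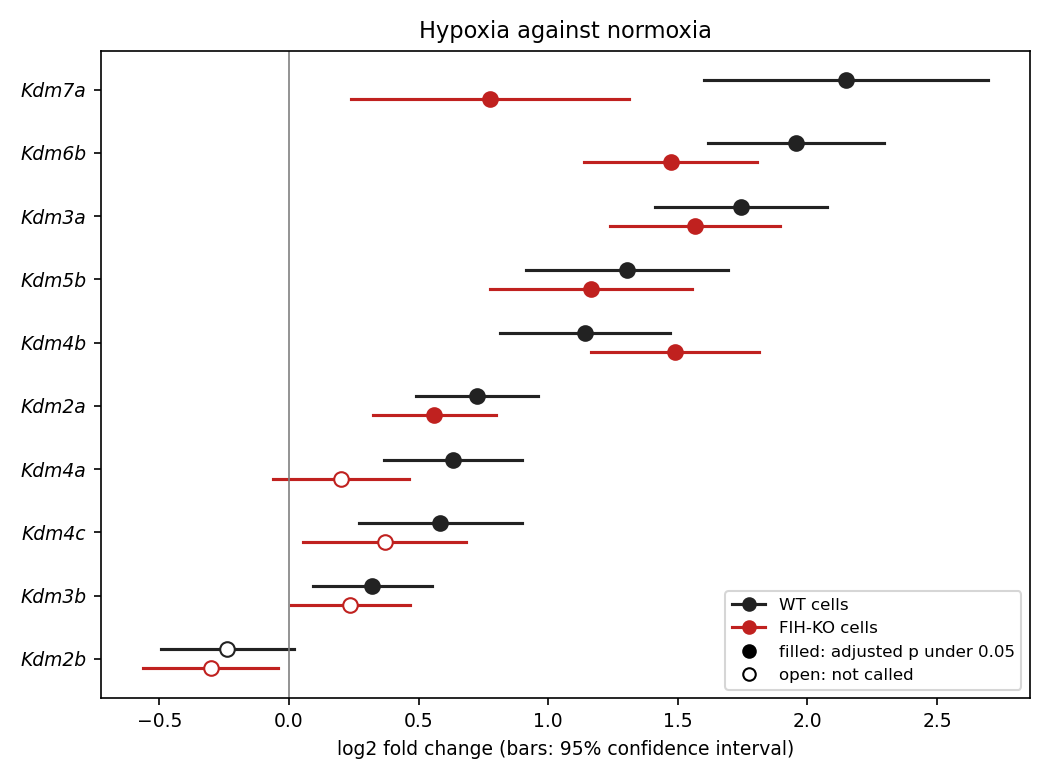
Log2 fold change of hypoxia against normoxia (horizontal axis) for each demethylase in WT (black) and FIH-KO (red) cells. Points are edgeR estimates, bars are 95% confidence intervals and open points did not pass an adjusted p of 0.05. The intervals of Kdm7a in the 2 genotypes do not meet, from 1.60 to 2.69 in WT and from 0.24 to 1.31 in FIH-KO cells. A direct test of this difference did not pass in edgeR (adjusted p = 0.36), although DESeq2 called it. Kdm2b is the gene left of 0.

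To place the genes on a common scale, reads were also divided by gene length (RPKM, over the union of annotated exons). In WT normoxia Kdm4a was the highest, at 17.6 ± 1.30 RPKM (SD, n = 2), followed by Kdm2a at 9.39 ± 0.14 (SD, n = 2). Kdm3b, Kdm3a and Kdm6b came next, at 8.02, 7.65 and 7.07 RPKM, and neighbours among these 3 overlapped between libraries. Kdm2b, Kdm4b, Kdm5b, Kdm7a and Kdm4c followed in that order, from 4.38 down to 1.18 RPKM, without overlap between neighbours.

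In WT hypoxia the order changed. Kdm6b came first at 27.4 ± 0.05 RPKM (SD, n = 2), beside Kdm4a at 27.2 ± 0.01 (SD, n = 2) and Kdm3a at 25.6 ± 4.87 (SD, n = 2). The libraries of Kdm3a, at 29.1 and 22.2 RPKM, enclosed those of both Kdm6b and Kdm4a. Kdm2a followed at 15.5 RPKM and Kdm3b at 10.0 RPKM, and Kdm2b was above Kdm4c alone, at 3.72 RPKM. In FIH-KO hypoxia Kdm3a (30.9 RPKM), Kdm6b (28.2) and Kdm4a (25.7) again led, with overlapping neighbours, and Kdm4b (14.3) had passed Kdm2a (10.5). The order depends on the length used. With the longest annotated transcript, Kdm3a led alone in hypoxia, at 51.6 RPKM in WT cells and 62.2 RPKM in FIH-KO cells, and Kdm7a and not Kdm4c was the lowest in every group except WT hypoxia.

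**Figure D3:**
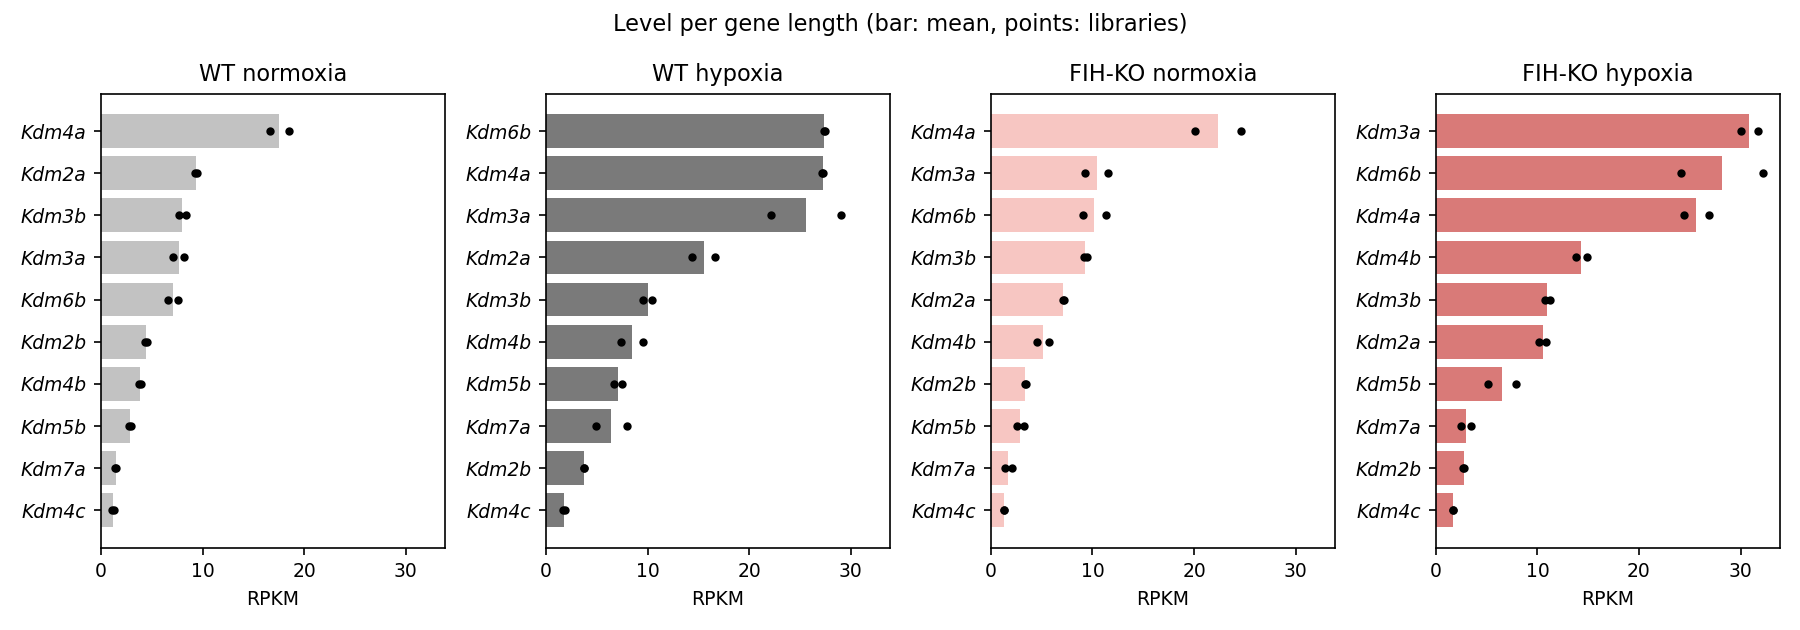
Level per gene length (RPKM over the union of annotated exons, horizontal axis from 0) of the 10 demethylases, sorted within each group. Bars are means and points the 2 libraries. Kdm4a led in both normoxia groups, and Kdm3a, Kdm4a and Kdm6b stood between 25.6 and 30.9 RPKM in hypoxia.

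FIH hydroxylates an asparagine of HIF-α and so reduces its activity as a transcription factor, which raises the question of whether its loss moves the demethylases without a fall in oxygen. In normoxia, 2 of the 10 were called higher and 2 lower in FIH-KO than in WT cells. Of all tested genes 28.2% were called, 15.2% higher and 13% lower. The median log2 fold change of the 10 was 0.23, against -0.00 over all tested genes. Kdm6b was higher by 0.53 (SE 0.15, adjusted p = 0.024) and Kdm3a by 0.45 (SE 0.15, adjusted p = 0.043), in both cases with the FIH-KO libraries above the WT libraries. These genotype differences in normoxia were smaller than the hypoxic rise of the same genes in WT cells, 1.96 and 1.75. Kdm4b (0.41, SE 0.15, adjusted p = 0.061) and Kdm4a (0.35, SE 0.12, adjusted p = 0.051) had separate groups and did not pass the test, although Kdm4b was called in 6 alternative fits and Kdm4a in 5. Kdm2a (-0.40, SE 0.11, adjusted p = 0.017) and Kdm2b (-0.37, SE 0.12, adjusted p = 0.035) were lower. The call of Kdm2b was lost in 6 alternative fits, DESeq2 among them, and that of Kdm3a in 4. The calls of Kdm2a and Kdm6b were lost in 3 each. The count of 4 fell to 0 without WT normoxia replicate 1, without WT normoxia replicate 2 or without FIH-KO normoxia replicate 1, and calls over all genes fell in the same fits from 3933 to between 1725 and 2109. In these 3 fits the log2 values lay between -0.43 and -0.38 for Kdm2a, -0.40 and -0.36 for Kdm2b, 0.28 and 0.55 for Kdm3a, and 0.35 and 0.61 for Kdm6b. With the 4 normoxia libraries alone in the fit, 6 of the 10 were called, Kdm4a and Kdm4b added, while calls over all genes rose from 3933 to 4603.

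At 1% O2, 1 of the 10 was called higher and 3 lower in FIH-KO than in WT cells, against 28% of all tested genes, 14.1% higher and 13.9% lower. The median of the 10 was -0.08, against -0.03 over all tested genes. Kdm4b was higher, 1.69-fold (log2 0.75, SE 0.15, adjusted p = 0.0026), and was called with every library left out (0.58 to 0.95). Kdm7a was lower, at 0.457 times the WT level (log2 -1.13, SE 0.24, adjusted p = 0.0044). Without WT hypoxia replicate 2, the library with 93.2 CPM, the Kdm7a value was -0.74 (adjusted p = 0.064). Kdm2a was again lower (-0.56, SE 0.11, adjusted p = 0.0026), in every fit, and so was Kdm2b (-0.43, SE 0.12, adjusted p = 0.018), a call lost in 6 alternative fits. For Kdm3a (0.27, 95% confidence interval -0.05 to 0.59) and Kdm6b (0.04, -0.28 to 0.36) no difference was called.

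**Figure D4:**
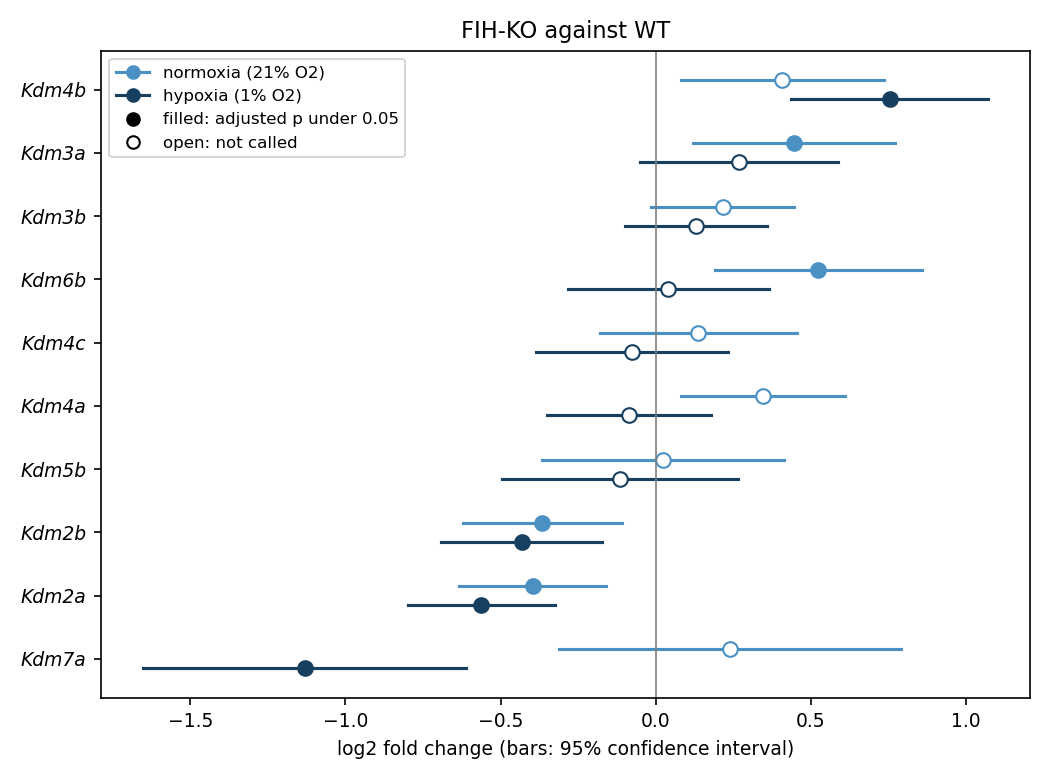
Log2 fold change of FIH-KO against WT (horizontal axis) for each demethylase in normoxia (light blue) and hypoxia (dark blue). Points are edgeR estimates, bars are 95% confidence intervals and open points did not pass an adjusted p of 0.05. Kdm2a and Kdm2b lie left of 0 in both conditions, Kdm4b is highest in hypoxia, and Kdm7a is at 0.24 in normoxia and -1.13 in hypoxia.

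Kdm2a lies on chromosome 19, as Hif1an does, and for the other 475 tested genes of that chromosome the median log2 fold change of FIH-KO against WT was -0.38 at 21% O2 and -0.45 at 1% O2, close to the values of Kdm2a itself. The 10 tested genes nearest to Kdm2a, all within 205 kb, had medians of 0.19 and -0.19. The part of the chromosome in the difference of Kdm2a was not tested. For the chromosomes of the other 9 demethylases the medians lay between -0.13 and 0.17.

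Whether FIH loss acted differently at the 2 oxygen levels was tested as an interaction, which compares the 2 genotype effects directly. None of the 10 passed (0 of 10), and 0% of all tested genes did in edgeR, with 925 genes and 3 of the demethylases at an unadjusted p under 0.05. DESeq2 called 40 genes, among them Kdm7a. The Kdm7a difference was -1.37 on the log2 scale (SE 0.35, 95% confidence interval -2.13 to -0.62, unadjusted p = 0.0019, adjusted p = 0.36 in edgeR and 0.025 in DESeq2), and over the other fits the adjusted p ran from 8.5e-06 without a filter on low counts to 1 without WT normoxia replicate 1. Kdm4a (-0.43, unadjusted p = 0.027, adjusted p = 0.67) and Kdm6b (-0.48, unadjusted p = 0.043, adjusted p = 0.73) were the other 2. The sign of the interaction was negative for 9 of the 10 genes and positive for Kdm4b (0.35, SE 0.21, adjusted p = 0.80). The median of the 10 was -0.17, against -0.02 over all tested genes, whose signs were not counted. With a library left out, the values of Kdm3a and Kdm5b reached 0.032 and 0.13, so the signs do not show a shared difference.

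The profile of Kdm7a, taken for its rank with all libraries used, was compared with that of 10566 other genes that averaged 50 counts or more. The most similar were L3mbtl3 (Pearson r = 0.987), a reader of methylated lysines, the long non-coding RNA Firre (0.986), 0610030E20Rik (0.986), Pign (0.985), an enzyme of GPI anchor synthesis, and Sdccag8 (0.981), a centrosomal protein. All 5 had a larger log2 fold change with hypoxia in WT than in FIH-KO cells, such as 0.97 against 0.33 for Firre, and all changed less than Kdm7a did. The larger value in WT cells follows from choosing genes by their likeness to Kdm7a and is no separate result. For Kdm3a, a comparison added after its values were seen, the most similar gene was Bnip3l (r = 0.993), a mitophagy receptor, with log2 fold changes of 1.79 in both genotypes. These r values describe 8 libraries that fall into 4 groups.

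Other genes of the family and of the opposing reaction were set beside the 10. Of 12 further JmjC histone demethylase family genes, 9 were tested, and Kdm5d, Kdm4d and Uty, at 0 to 6 reads in every library, were not. Hypoxia raised 4 of the 9 in WT cells and 3 in FIH-KO cells and lowered none, against 16.9% and 8.84% of all tested genes called higher. The medians of the 9 were 0.37 and 0.24, against -0.00 and -0.03 over all tested genes. The largest called rises in WT cells were those of Kdm5a (0.51, adjusted p = 0.0037), Jmjd1c (0.50, adjusted p = 0.0052) and Kdm6a (0.42, adjusted p = 0.020). They are relatives of Kdm5b, Kdm3a and Kdm6b, and each was below that of its relative, 1.31, 1.75 and 1.96. Because the 10 were picked with earlier results of these data known, this contrast cannot set them apart from the rest of the family. In FIH-KO cells the 3 were Jarid2 (0.60), a catalytically inactive partner of Polycomb repressive complex 2 (PRC2), Jmjd1c (0.52) and Kdm5a (0.38). Against WT cells, Kdm6a was higher in FIH-KO cells in normoxia (0.63, adjusted p = 0.0026) and hypoxia (0.45, adjusted p = 0.015), and Jarid2 was lower in normoxia (-0.53, adjusted p = 0.014). Kdm1a and Kdm1b, demethylases that use FAD and belong to another enzyme class, were called in none of the comparisons, and their hypoxia values lay between -0.37 and -0.02.

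The counts of methyltransferase genes below stand against 16.9% of all tested genes higher and 15.5% lower with hypoxia in WT cells, and 8.84% and 8% in FIH-KO cells. Of these genes, the H3K4 enzymes had the largest hypoxia values. Kmt2d (1.24, adjusted p = 1.7e-05), Kmt2c (0.95, adjusted p = 0.00089) and Kmt2b (0.41, adjusted p = 0.020) rose in WT cells, 3 of 6 tested, and Kmt2d (0.69) and Kmt2c (0.62) rose in FIH-KO cells. Among 6 H3K9 methyltransferases, Suv39h2 (0.45) and Setdb1 (0.36) rose and Suv39h1 (-0.69, adjusted p = 0.0017) fell in WT cells, and in FIH-KO cells Suv39h2 (0.44) rose and Suv39h1 (-0.42) fell. None of the 4 PRC2 genes, which write the mark that Kdm6b removes, was called with hypoxia in either genotype. Of 5 H3K36 methyltransferases, Ash1l (0.51) rose in WT cells and none was called in FIH-KO cells. Among 9 PRC1.1 partners of Kdm2b, Bcorl1 (0.56) rose and Skp1 (-0.44) fell in WT cells, and none was called in FIH-KO cells.

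**Figure D5:**
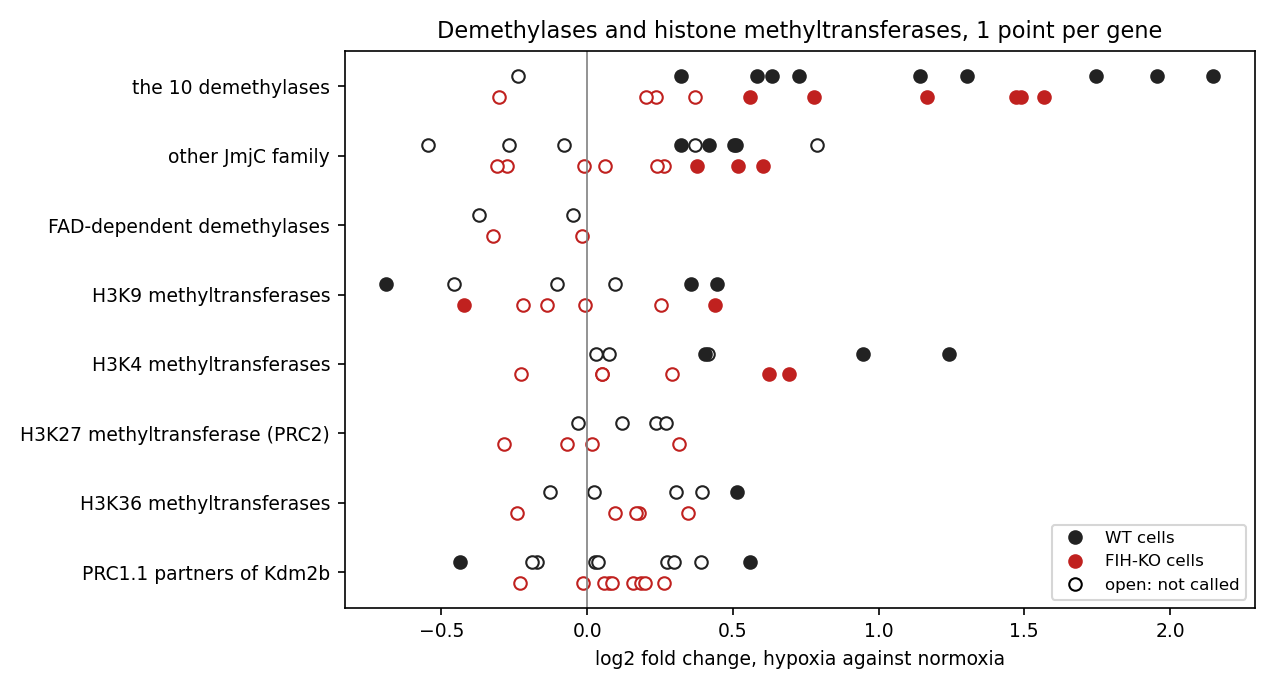
Log2 fold change of hypoxia against normoxia (horizontal axis) for the 10 demethylases and 7 lists of related genes, 1 point per tested gene, in WT (black) and FIH-KO (red) cells. Open points did not pass an adjusted p of 0.05. The 10 demethylases, picked with earlier results of these data known, reach 2.15, the other lists at most 1.24.

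Lower levels in FIH-KO than in WT cells were called in 3 of the 4 methyltransferase lists. Over all tested genes 13% were lower and 15.2% higher in normoxia, and 13.9% and 14.1% in hypoxia. In normoxia 4 of the 6 H3K9 methyltransferases were lower, led by Setdb1 (-0.63, adjusted p = 0.0011), Setdb2 (-0.59) and Suv39h2 (-0.53), and in hypoxia 2 were, Setdb1 (-0.73) and Suv39h2 (-0.55). The PRC2 genes Ezh2 (-0.45 in normoxia and -0.70 in hypoxia) and Suz12 (-0.55 and -0.51) were lower, and Ezh1 (0.58) was higher in normoxia. Of the H3K36 enzymes, Nsd2 (-0.77 and -0.89) and Nsd1 (-0.42 and -0.35) were lower in both conditions and Ash1l (-0.49) in hypoxia. Kmt2d (0.53) was higher in normoxia, the only call among the H3K4 enzymes. Of the PRC1.1 partners, Rybp (-0.61 and -0.81) and Rnf2 (-0.44 and -0.42) were lower, as Kdm2b was, while Ring1 was higher in normoxia (0.55) and Bcor in hypoxia (0.50).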

How the data were processed

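Reads of stranded mRNA libraries were mapped by the authors to GRCm39 using STAR, and gene counts were made with HTSeq. The submitters' notes name both GRCm38 and GRCm39, and the annotation release and strand setting are not given in the sources used here. The series' design text names the WT hypoxia group a second time in place of FIH-KO hypoxia, so groups follow the labels of each sample. The deposited values are raw counts of 53700 genes without normalization, and all 8 columns were used. Gene positions and exon lengths came from GENCODE M39 (97.97% of the identifiers matched), and window sequences from the GRCm39 genome.

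Differential expression was tested with the quasi-likelihood test of edgeR 4.0.16 (R 4.3.3). Genes passing filterByExpr (13933) were scaled with TMM, the 4 group means were fitted together, and p-values were adjusted by Benjamini-Hochberg over all tested genes, with calls at 0.05. The common biological coefficient of variation was 11.7%. Alternatives were DESeq2 1.42.0 (Wald test), RLE or upper-quartile normalization, no filter, at least 10 counts in every library, the 4 libraries of a comparison alone, a replicate block and each library left out. For RPKM, the longest transcript replaced the exon union. The fit was tested on simulated counts, and plots were drawn with matplotlib 3.10.9 in Python 3.11.15.

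The genes and lists were chosen with earlier results of these data known. All 10 demethylases were named. From each list, at most the 3 called genes with the largest change in a comparison were named, and for the demethylase with the largest hypoxic change in WT cells the 5 genes with the highest Pearson r. The median of a gene's chromosome is given where it passed 0.2 in size.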

Additional observations from a re-analysis of the deposited data

How the results depend on the processing

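The hypoxic rise was the least sensitive result. In WT cells 7 to 9 of the 10 demethylases were called under every alternative (9 in the main analysis), with Kdm2a, Kdm3a, Kdm4a, Kdm4b, Kdm5b, Kdm6b and Kdm7a in each, and in FIH-KO cells 5 or 6 (6 in the main analysis), with Kdm2a, Kdm3a, Kdm4b, Kdm5b and Kdm6b in each. For genotype in normoxia, DESeq2 and upper-quartile normalization each called 3, Kdm2b being lost in the first and Kdm3a in the second. Both genotype counts depended on single libraries. In normoxia the count of 4 was 6 with the 4 libraries of the comparison alone and ranged from 0 to 5 and in hypoxia that of 4 ranged from 2 to 5 with each library left out in turn, and 2 was the value without WT hypoxia replicate 2. For the interaction, 1 demethylase, Kdm7a, was called in place of 0 without a filter on low counts and 1, again Kdm7a, with DESeq2, and over all genes these fits called 143 and 40 in place of 0, the replicate block 5, and the fit without FIH-KO hypoxia replicate 1 17. The cause was not tested.

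The values whose sign changed were differences not called in the main analysis. With each library left out, FIH-KO against WT ran from -0.15 to 0.18 for Kdm5b and from -0.079 to 0.51 for Kdm7a in normoxia, and from -0.45 to 0.15 for Kdm5b and from -0.18 to 0.23 for Kdm6b in hypoxia. The lowest of the Kdm5b values in hypoxia, without FIH-KO hypoxia replicate 1, was called (adjusted p = 0.048). The interaction ran from -0.36 to 0.032 for Kdm3a and from -0.47 to 0.13 for Kdm5b. Of all tested genes, hypoxia in FIH-KO cells called 2345, and 1251 with the 4 libraries of the comparison alone. Leaving out a library of a comparison left a single library in its group. In the genotype and hypoxia comparisons, this lowered the calls over all genes, with an exception. Without FIH-KO hypoxia replicate 2, hypoxia in FIH-KO cells called more genes than in the main analysis. Replicate numbers are shared between groups, but the correlations of replicate differences lay between -0.01 and 0.19, so the numbers were not taken to pair the libraries. With a replicate block, 5 demethylases were called for genotype in normoxia, Kdm4b added, and 4 for genotype in hypoxia. For hypoxia in WT and FIH-KO cells 9 and 6 were called, and for the interaction 0. Over all genes the block called 4080 and 4039 for genotype in normoxia and hypoxia, against 3933 and 3896 in the main analysis. For hypoxia in WT and FIH-KO cells it called 4593 and 2479, against 4509 and 2345. Another scaling moved the median of all genes by at most 0.03 on the log2 scale.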
